A study of Mus musculus with 2 samples.

Results

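The mitochondrial ribosomal protein genes were taken as all protein-coding rows of the deposited expression table whose symbol is Mrpl or Mrps followed by a digit. The rule found 78 genes of 54680 rows, 49 named for the large subunit (Mrpl) and 29 for the small subunit (Mrps). RNA sequencing was done on CT26 cells, a mouse colon cancer line, transduced with lentivirus and cultured for 6 days. The knockdown cells are titled as differentiated. The knockdown group (CT26shSetdb1) carried a hairpin that targets Setdb1, the gene of an enzyme that methylates histone H3. The control group (CT26shCtrl) is labelled wild type and carried the empty knockdown vector. Both groups share the line, the medium and the lentiviral infection, and the labels name no clone and no second hairpin. Each group had 1 library, so no difference below has a replicate check, and each describes these 2 libraries and not the conditions.

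The mitochondrial ribosome makes the few proteins encoded by mitochondrial DNA, all of them subunits of the respiratory chain and ATP synthase. Its proteins are encoded in the nucleus, made in the cytosol and imported, and its ribosomal RNAs come from the mitochondrial genome. Some of its proteins have counterparts in bacterial ribosomes, and others occur only in mitochondria.

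The libraries held 18421604 reads (control) and 19045830 reads (knockdown), recovered as whole reads from the deposited values. Setdb1 itself was at 10.4 FPKM in the control and 2.47 FPKM after knockdown, 23.7% of the control level. FPKM is the number of fragments divided by gene model length and by sequencing depth, here with 1 common depth for both libraries. Of the 7 epithelial markers checked, Krt18 was clearly present (37.7 and 90.0 FPKM), while Epcam and Cdh1 had 0 reads in both libraries and the other 4 were at 1.53 FPKM or less. The mesenchymal markers Vim, Col1a1 and Fn1 were between 24.0 and 835 FPKM. Of the leukocyte markers, Cd68 was at 10.4 FPKM in the control and 100.2 FPKM after knockdown, Ptprc had 0 and 4 reads and Cd3e none, and the endothelial markers Pecam1 and Cdh5 had none. The part of these markers in the results below was not tested. A level is a share of the RNA of a culture, so less RNA per cell and fewer cells carrying it cannot be told apart.

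Promoters of 7 members are shown here as examples, and their part in the ratios was not tested. The paralogs Mrps18a, Mrps18b and Mrps18c differed in direction. Mrpl37 and Mrps22 had the lowest ratio in each subunit, and Mrpl14 the highest in the large subunit. Mrpl12 is a bearer of the NRF1 motif. Each run is the 250 bases before the start annotated in RefSeq, 5′ to 3′ on the gene's strand, on GRCm38.p6. The deposited gene models can start elsewhere. That of Mrps18c starts at 100798627 on chromosome 5, inside its run. The runs of Mrps18a, Mrpl37, Mrpl14 and Mrpl12 also reach into their gene models. Distances between 5′ ends given below use the deposited gene models. Capitals mark the ETS core (CCGGAAG), the E-box (CACGTG) and the NRF1 motif (as in the Mrpl12 promoter), read on both strands.
Mrps18a: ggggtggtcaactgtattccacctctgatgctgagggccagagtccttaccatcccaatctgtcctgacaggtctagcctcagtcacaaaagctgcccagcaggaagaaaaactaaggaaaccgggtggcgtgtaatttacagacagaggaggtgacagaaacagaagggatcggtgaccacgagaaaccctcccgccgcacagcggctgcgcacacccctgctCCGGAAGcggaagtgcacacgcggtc
Mrps18b: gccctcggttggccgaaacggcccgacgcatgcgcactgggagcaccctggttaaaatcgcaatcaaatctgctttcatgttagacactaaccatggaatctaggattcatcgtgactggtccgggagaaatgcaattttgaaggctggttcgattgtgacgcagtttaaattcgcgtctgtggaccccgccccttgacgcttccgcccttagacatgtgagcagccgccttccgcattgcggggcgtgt
Mrps18c: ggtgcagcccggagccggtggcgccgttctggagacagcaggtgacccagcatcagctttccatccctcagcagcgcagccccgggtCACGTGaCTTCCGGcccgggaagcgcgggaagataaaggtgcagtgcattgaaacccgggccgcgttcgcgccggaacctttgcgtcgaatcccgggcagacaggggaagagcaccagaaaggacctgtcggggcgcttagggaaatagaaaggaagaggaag
Mrpl37: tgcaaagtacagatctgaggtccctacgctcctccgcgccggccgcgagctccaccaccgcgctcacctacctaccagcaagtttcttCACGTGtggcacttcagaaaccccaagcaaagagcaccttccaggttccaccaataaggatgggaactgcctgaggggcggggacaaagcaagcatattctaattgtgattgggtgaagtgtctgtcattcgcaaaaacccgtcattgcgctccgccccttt
Mrps22: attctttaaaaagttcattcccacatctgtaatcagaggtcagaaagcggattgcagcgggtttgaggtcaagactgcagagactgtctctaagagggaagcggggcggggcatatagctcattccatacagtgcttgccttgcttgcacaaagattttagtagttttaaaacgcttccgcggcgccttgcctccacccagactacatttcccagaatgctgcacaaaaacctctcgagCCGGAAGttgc
Mrpl14: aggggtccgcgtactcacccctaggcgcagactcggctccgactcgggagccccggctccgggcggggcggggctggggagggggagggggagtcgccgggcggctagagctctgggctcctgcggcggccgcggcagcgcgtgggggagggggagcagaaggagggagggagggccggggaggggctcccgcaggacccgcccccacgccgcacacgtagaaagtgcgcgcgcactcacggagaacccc
Mrpl12: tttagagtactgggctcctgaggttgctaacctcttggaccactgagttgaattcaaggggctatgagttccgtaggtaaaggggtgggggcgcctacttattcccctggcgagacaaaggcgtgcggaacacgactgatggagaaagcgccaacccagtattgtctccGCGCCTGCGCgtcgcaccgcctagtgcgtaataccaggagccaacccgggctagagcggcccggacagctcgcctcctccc
Mrps18a lies at chr17:46110754-46111003 on the plus strand, Mrps18b at chr17:35916441-35916690 on the minus strand and Mrps18c at chr5:100798509-100798758 on the plus strand. Mrpl37 lies at chr4:107066867-107067116 (minus), Mrps22 at chr9:98601680-98601929 (minus), Mrpl14 at chr17:45686099-45686348 (plus) and Mrpl12 at chr11:120484387-120484636 (plus). Mrps18b and Mrpl14 hold no capitals in these bases, although Mrps18b has an ETS core and Mrpl14 an NRF1 motif in the 50 bases after the start. Mrps18a and Mrpl37 also have the YY1 motif there.

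The mitochondrial ribosomal protein genes were on balance slightly lower after knockdown. In either library or both, 76 of the 78 reached 1 FPKM, 47 of the large and 29 of the small subunit. Knockdown over control, the median log2 ratio of (FPKM + 1) was -0.17 over these 76, with quartiles of -0.34 and 0.11. Over the 10671 genes at this level the median was -0.00039, with quartiles of -0.36 and 0.38. Of the 76, 49 were lower (64.5%), against 50.0% of all genes at this level, and 27 were higher, against 49.6%. Their reads summed to 71599 in the control and 65575 after knockdown, a ratio of 0.886 relative to the library totals (95% exact counting interval 0.876 to 0.895).

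On the (FPKM + 1) scale, most members differed little. At a threshold of 1.5-fold on this scale, 6 members were lower (7.89%), against 14.3% of all genes, and 4 were higher (5.26%), against 16.9% of all genes. With a pseudocount of 0.1 in place of 1, 7 were lower and 4 higher. In read ratios relative to library totals, the 6 lower members stayed past 1.5-fold. Past it too were Mrpl1 (0.577), Mrpl32 (0.651), Mrps6 (0.653), Mrps18b (0.657), Mrpl3 (0.659) and Mrps5 (0.662). Mrpl14 (1.47) then fell short of 1.5-fold higher, which left Mrps18c (1.84), Mrps25 (1.58) and Mrps36 (1.52). No share over all genes is given on this scale. At 2-fold on the (FPKM + 1) scale, 0 members were lower and 0 higher, against 4.85% and 6.81% of all genes. By read ratio, Mrps22 (0.4998) was just past 2-fold lower. After correction for GC content and length, Mrpl37 (log2 ratio -1.02) was past it too. At a lower threshold of 0.32 on the log2 scale, 20 were lower and 9 higher, against 27.5% and 28.2% of all genes. The split of 6 lower and 4 higher became 7 and 1 with each library scaled by its own read total, and 8 and 1 under upper-quartile scaling. An exact binomial test of reads, two-sided with Benjamini-Hochberg adjustment over all genes, compares the libraries and not the conditions. At an adjusted p under 0.05 it called 42 members lower (55.3%) and 15 higher (19.7%), and left 19 uncalled. The shares over all genes were 40.2% lower and 34.7% higher.

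**Figure D1:**
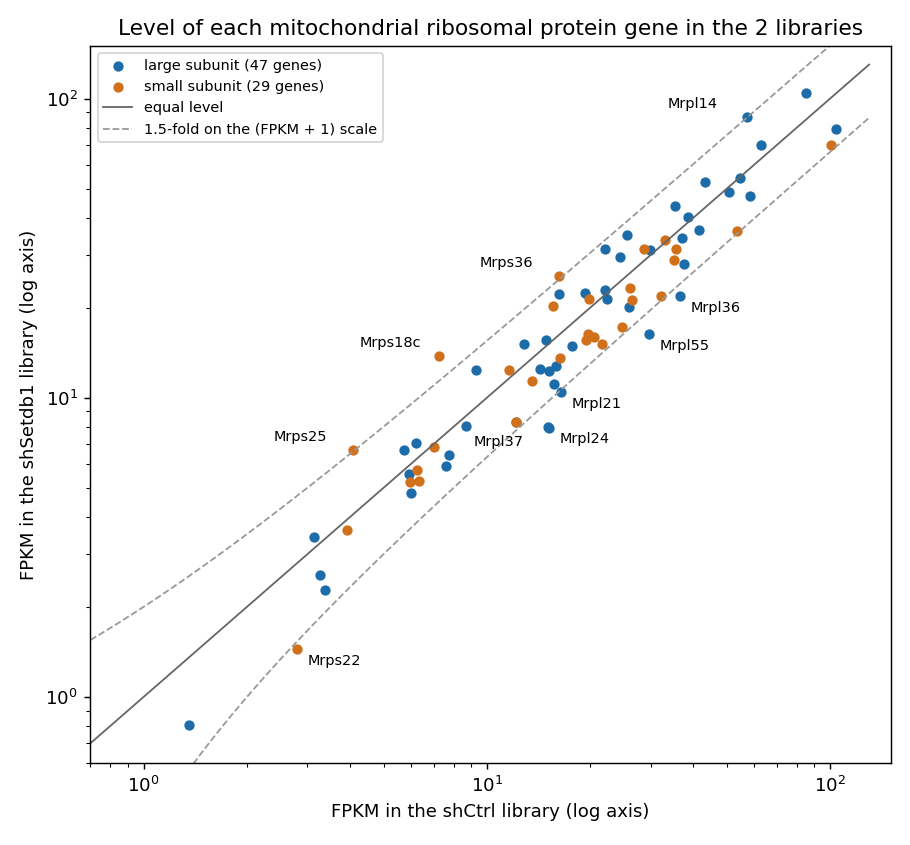
FPKM of the 76 members in the control (horizontal, log axis) and the knockdown library (vertical, log axis), by subunit. Dashed lines mark 1.5-fold on the (FPKM + 1) scale, and the 10 members beyond them are named, 6 below and 4 above.

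Levels in the control ran from 1.35 FPKM (Mrpl1) to 104 FPKM (Mrpl2) in the large subunit and from 2.80 FPKM (Mrps22) to 101 FPKM (Mrps21) in the small subunit. The medians were 17.7 FPKM for the large and 19.5 FPKM for the small subunit in the control, and 16.3 and 16.0 FPKM after knockdown. The 3 highest members of the large subunit by mean level were Mrpl28, Mrpl2 and Mrpl14. Mrpl2, the counterpart of a core bacterial protein near the catalytic centre, went from 104 to 78.8 FPKM (log2 ratio -0.39, and -0.62 after correction for GC content and length). Mrpl28 was at 85.0 FPKM in the control and 104.6 FPKM after knockdown, so that it held the first place there. Its log2 ratio was 0.30, and 0.0429 after correction for GC content and length. Of the small subunit, Mrps21 went from 101 to 70.0 FPKM and Mrps6 from 53.6 to 36.2 FPKM, and Mrps24, the other of the 3 highest, was at 35.5 and 31.4 FPKM (log2 ratio -0.17, and -0.33 after that correction). Across members, which are not independent replicates, control FPKM and the length of the gene model had a Spearman correlation of -0.70 over 76 genes, against -0.32 over 9351 protein-coding genes. Gene models ran from 607 to 8631 bases with a median of 2213.5 bases.

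On the log2 scale of (FPKM + 1), the 4 lowest ratios of all members were those of large-subunit genes, while the lowest read ratio was that of Mrps22 in the small subunit. Mrpl37 (chromosome 4, 107055874 to 107066868 in GRCm38), a mitochondria-specific protein, was at 15.2 FPKM in the control and 7.95 FPKM after knockdown. Its log2 ratio was -0.86 (-1.02 after correction for GC content and length), and its read ratio was 0.506 (0.460 to 0.556). Mrpl24 (chromosome 3, 87919506 to 87923672), which lines the exit of the peptide tunnel, had almost the same levels, 15.1 and 7.98 FPKM, and a log2 ratio of -0.84. Exon overlap, with Rrnad1 as the gene that has reads, covers 26.3% of the exon bases of Mrpl24. Mrpl55, the counterpart of a bacterial protein of the central protuberance, went from 29.6 to 16.3 FPKM (log2 ratio -0.82). Mrpl36 was at 36.4 and 21.9 FPKM (-0.71), and Mrpl21 at 16.5 and 10.4 FPKM (-0.61). All 5 had counting intervals of the read ratio below 1, the highest upper bound being 0.697 (Mrpl21).

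At the other end of the large subunit stood Mrpl14 (chromosome 17, 45686322 to 45698495), which lies on the face turned to the small subunit. It was at 57.2 FPKM in the control and 86.7 FPKM after knockdown, giving a log2 ratio of 0.59, with a read ratio of 1.47 (1.36 to 1.59). After correction for GC content and length its log2 ratio was 0.33, which is short of 1.5-fold. Mrpl45, which holds the ribosome to the inner membrane, went from 22.1 to 31.5 FPKM (log2 ratio 0.49). The mitochondria-specific proteins Mrpl41, Mrpl49 and Mrpl46 had log2 ratios of 0.44, 0.43 and 0.38. Mrpl41 was at 16.2 and 22.3 FPKM, Mrpl49 at 25.6 and 34.9 FPKM and Mrpl46 at 9.28 and 12.3 FPKM. The other 37 large-subunit members at 1 FPKM or more had log2 ratios between -0.50 (Mrpl3) and 0.30 (Mrpl27).

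In the small subunit, Mrps22 (chromosome 9, 98588730 to 98601660), a mitochondria-specific protein, had the lowest ratio. It was at 2.80 FPKM (209 reads) in the control and 1.44 FPKM (108 reads) after knockdown, giving a log2 ratio of -0.63, with a read ratio of 0.4998 (0.392 to 0.633). Mrps6 had a log2 ratio of -0.55, Mrps18b of -0.54 and Mrps21 of -0.52. After correction for GC content and length, Mrps6 was at -0.68 and Mrps18b at -0.62, both past 1.5-fold. Exons of other genes, among them Slc5a3, cover 19.9% of the exon bases of Mrps6. Mrps5 went from 12.2 to 8.32 FPKM (-0.50). Mrps17 and Mrps2 were close behind, both at -0.49, and the next was Mrps15 at -0.34.

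The highest ratio of all members was that of Mrps18c, described with its paralogs below. Mrps36 (chromosome 13, 100735955 to 100744659) was at 16.3 and 25.6 FPKM (log2 ratio 0.62, read ratio 1.52, 1.34 to 1.73). It carries a ribosomal name but is now known as a component of the 2-oxoglutarate dehydrogenase complex. Mrps25 (chromosome 6, 92169525 to 92184033) was at 4.08 and 6.67 FPKM (log2 ratio 0.60), and 69.8% of its exon bases overlap Nr2c2, so reads of either gene could enter its value. Mrps33 went from 15.6 to 20.2 FPKM (0.35) and Mrps12, the decoding-centre protein, from 28.7 to 31.4 FPKM (0.13, and -0.0612 after correction for GC content and length). The remaining small-subunit members lay between -0.49 and 0.11.

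**Figure D2:**
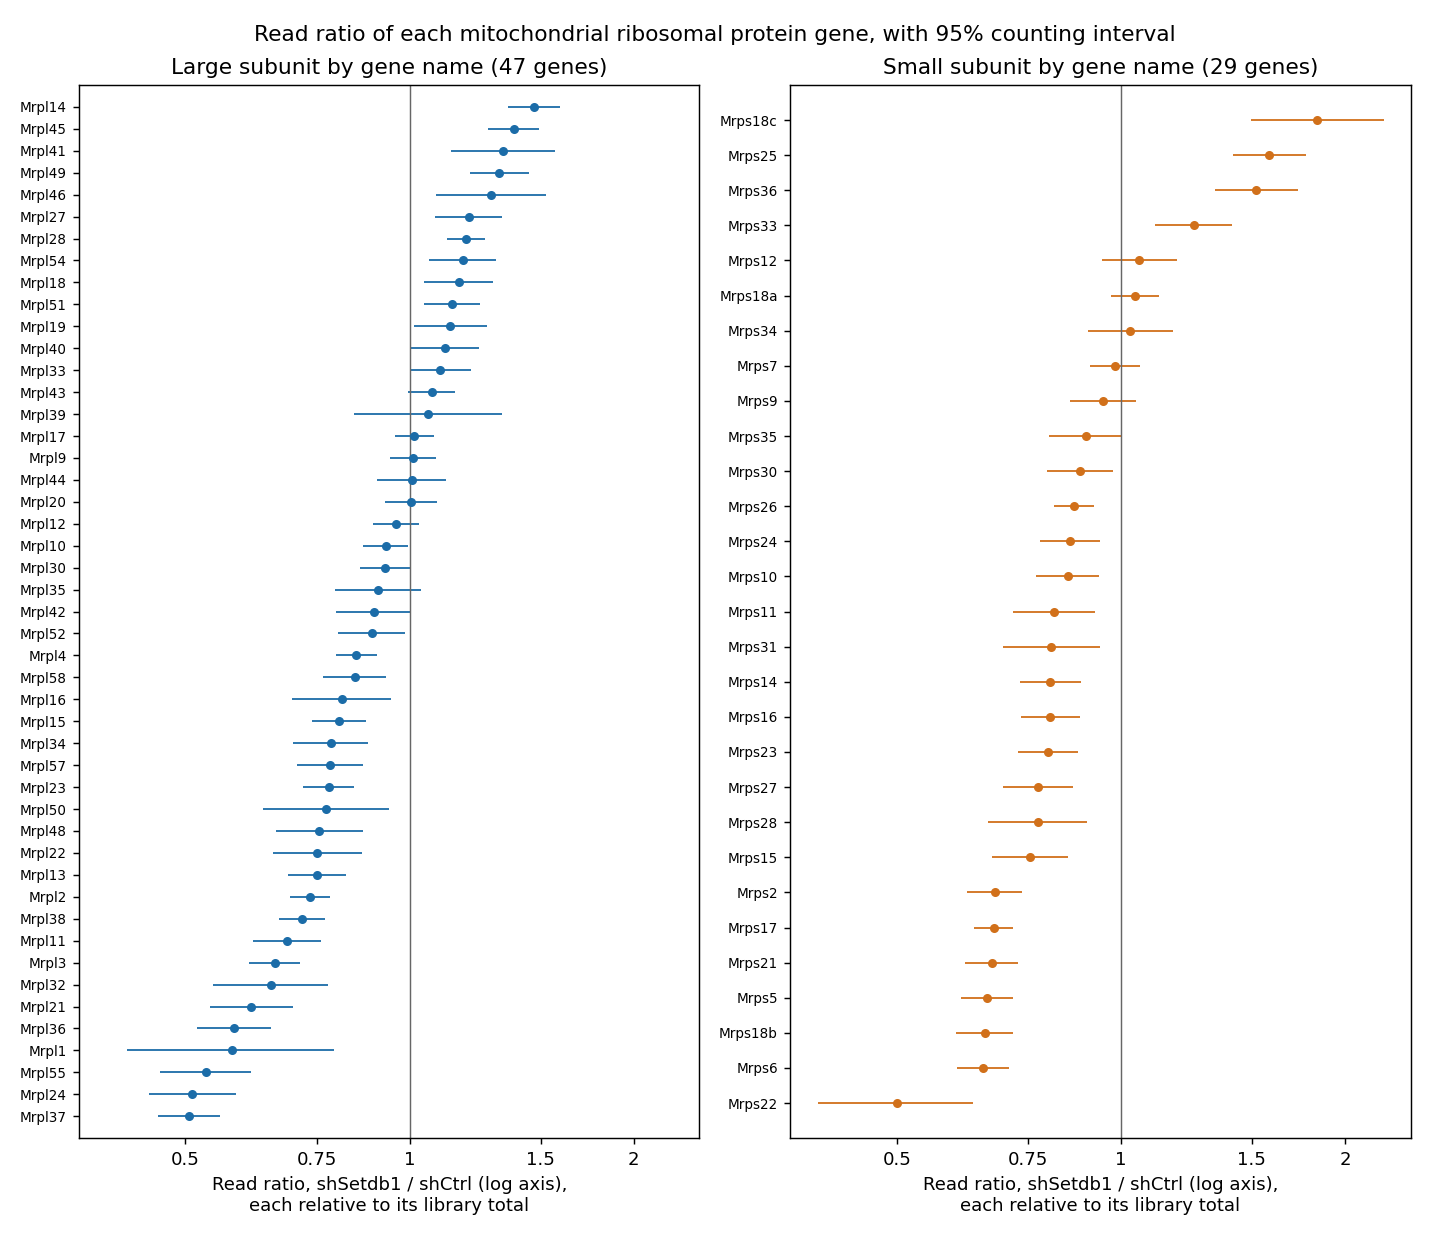
Read ratio of each member at 1 FPKM or more, knockdown over control and relative to library totals (log axis), with 95% exact counting intervals, for the large and the small subunit by gene name. The large subunit runs from Mrpl37 (0.506) to Mrpl14 (1.47) and the small subunit from Mrps22 (0.4998) to Mrps18c (1.84), with most small-subunit genes left of 1.

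Large and small subunit overlapped over almost their whole range. The large subunit had a median log2 ratio of -0.10, with 28 of 47 members lower, 5 past 1.5-fold lower (Mrpl37, Mrpl24, Mrpl55, Mrpl36, Mrpl21) and 1 higher (Mrpl14). The small subunit had a median of -0.22, with 21 of 29 lower, 1 past 1.5-fold lower (Mrps22) and 3 higher (Mrps25, Mrps36, Mrps18c). The large-subunit median was thus 0.12 above that of the small subunit, while the means, -0.11 and -0.13, differed by 0.0261. The quartiles were -0.33 and 0.18 for the large and -0.34 and 0.02 for the small subunit. Neither difference was tested. In summed reads, the large subunit was at 0.917 of the control share (0.905 to 0.929) and the small subunit at 0.835 (0.820 to 0.850).

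Names and places differ for a few members. Mrps30 and Mrps18a sit in the large subunit of the mammalian ribosome, and Mrps36 is left out by place. Mrps30 was at 6.27 and 5.72 FPKM (log2 ratio -0.11, but 0.0522 after correction for GC content and length). By place, the medians were -0.10 for 49 large-subunit genes and -0.24 for 26 small-subunit genes, of which 20 were lower. The difference of medians by place was 0.14.

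The 3 Mrps18 genes descend from the gene of 1 bacterial protein, and they differed in direction. Mrps18c, the paralog that takes the bacterial position on the platform, was at 7.24 FPKM (146 reads) in the control and 13.7 FPKM (277 reads) after knockdown. Its log2 ratio was 0.84 and its read ratio 1.84 (1.496 to 2.26). Mrps18b, another small-subunit protein, went the other way, from 32.3 to 21.9 FPKM, giving a log2 ratio of -0.54, with a read ratio of 0.657 (0.602 to 0.717). Mrps18a, which sits in the large subunit, was at 19.8 and 21.4 FPKM, a log2 ratio of 0.11 that became -0.0705 after correction for GC content and length, and its read ratio of 1.05 had an interval that included 1 (0.972 to 1.127). Summed over the 3 genes, reads were 2777 in the control and 2615 after knockdown. Within this sum, Mrps18c made up 5.26% of the reads in the control and 10.6% after knockdown, and Mrps18b 45.4% and 32.8%. Exon overlap with another gene covers 23.2% of Mrps18c and 30.5% of Mrps18b. Their promoters, printed above, share the ETS core, before the start in Mrps18a and Mrps18c and after it in Mrps18b, and Mrps18c alone of the 3 has the E-box.

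Genes of proteins with a bacterial counterpart were lower more broadly than genes of mitochondria-specific proteins. Of 45 genes of the bacterial type, 33 were lower and the median log2 ratio was -0.24. Of 28 mitochondria-specific genes, 15 were lower and the median was -0.09. The difference of medians was -0.15, and that of means -0.17. In the large subunit, 20 of 29 bacterial-type genes were lower (median -0.23), and 8 of 18 mitochondria-specific genes (median 0.08). In the small subunit, the counts were 13 of 16 (median -0.25) and 7 of 10 (median -0.13). In summed reads, the bacterial type was at 0.854 of the control share (0.843 to 0.865) and the mitochondria-specific type at 0.949 (0.931 to 0.967). Genes are not replicates, so these differences are descriptions.

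Members were also grouped by place in the ribosome, after their values were seen, so the counts by place are descriptions and support nothing. The 4 genes grouped around the peptidyl transferase centre, where peptide bonds are made, were lower, where 50.0% of all genes were. Mrpl27, whose bacterial counterpart reaches this centre, was placed with the central protuberance and was at 0.30. Mrpl3 had a log2 ratio of -0.50, Mrpl2 of -0.39, Mrpl16 of -0.24 and Mrpl4 of -0.19, and their summed reads went from 6202 to 4860. Mrpl1, the protein of the stalk at the tRNA exit side, had 109 and 65 reads and a log2 ratio of -0.38. It reached 1 FPKM only in the control (1.35 and 0.808 FPKM). In the stalk that recruits translation factors, Mrpl11 had a ratio of -0.46, while Mrpl10 had -0.06 and Mrpl12 -0.01 (-0.19 after correction for GC content and length). Mrpl12, also known to bind the mitochondrial RNA polymerase, was at 54.8 and 54.3 FPKM, and its read ratio of 0.958 had an interval that included 1 (0.893 to 1.03).

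The central protuberance, the crown of the large subunit, was mixed. Of its 9 genes, 5 were lower and 4 higher, from Mrpl55 (-0.82) and Mrpl38 (-0.42) to Mrpl27 (0.30) and Mrpl46 (0.38). Mrpl58, which releases stalled peptides and is also part of this crown, was at 14.3 and 12.4 FPKM (log2 ratio -0.18, read ratio 0.844, 0.766 to 0.931). The tunnel exit was just as wide, with Mrpl24 at -0.84, Mrpl22 at -0.35, Mrpl23 at -0.29, Mrpl17 at 0.06 and Mrpl45 at 0.49.

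In the small subunit, 6 of 8 genes of the head were lower but within a narrow span, from -0.25 (Mrps14) to -0.03 (Mrps9), with Mrps7 at 0.02 and Mrps33 at 0.35 above 0. The sign of Mrps7 turned with the scaling, as did those of Mrpl20 and Mrpl44. On the platform, which holds the messenger RNA exit, Mrps6 (-0.55), Mrps21 (-0.52), Mrps15 (-0.34) and Mrps11 (-0.23) stood against Mrps18c (0.84). In the body, Mrps5 and Mrps17 had ratios of -0.50 and -0.49, Mrps16 of -0.25 and Mrps12 of 0.13. The 5 platform genes had summed reads of 4281 and 3255, and the 4 body genes 5746 and 4353.

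**Figure D3:**
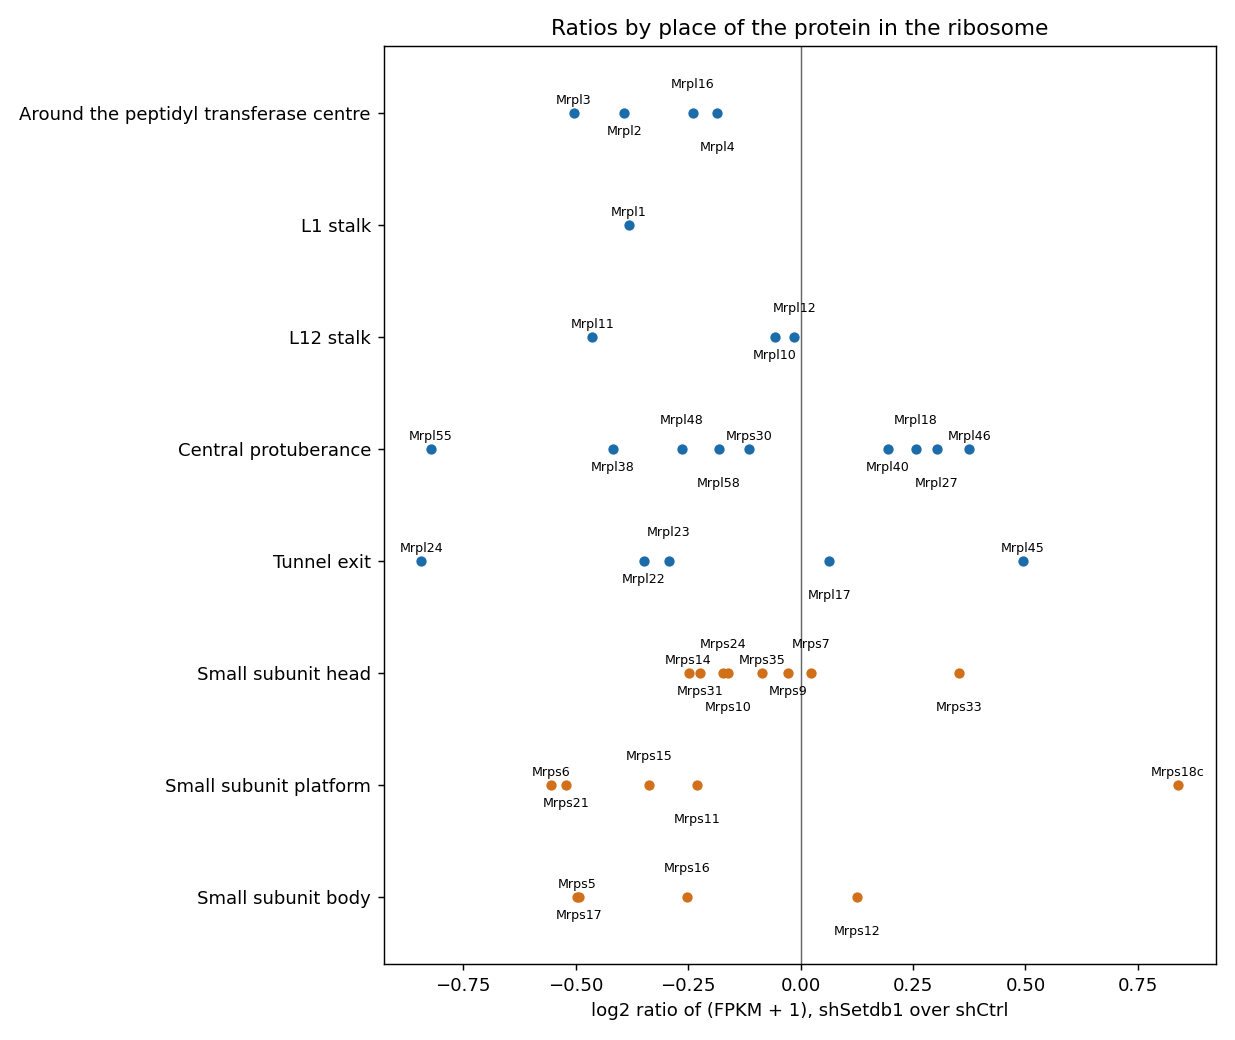
log2 ratio of (FPKM + 1), knockdown over control, of members with a known place (rows), large subunit in blue and small subunit in orange. The 4 genes around the peptidyl transferase centre lie between -0.50 and -0.19, while the central protuberance spans -0.82 to 0.38 and the platform -0.55 to 0.84.

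Below 1 FPKM in both libraries were Mrpl47 and Mrpl53. Mrpl47, a tunnel exit protein, had 81 reads in the control and 44 after knockdown, a read ratio of 0.525 (0.355 to 0.768). Mrpl53, a protein at the base of the factor-binding stalk, had 0 reads in both libraries. The annotated exons of other genes cover 88.0% of its exon bases, the highest share of the 78 members, so its listing at 0 does not show that the gene was silent. Exon overlap also covered more than 50% of the bases of Mrps34 (77.8%) and Mrps25. Without the members whose span overlaps another gene with reads, the median over the remaining 45 was -0.22.

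The genes of other proteins of the same ribosome, which carry no Mrp name, had a median log2 ratio whose sign depended on the scaling. Dap3 was highest, from 17.6 to 22.4 FPKM (log2 ratio 0.34), and Ptcd3 lowest, from 3.87 to 2.53 FPKM (-0.47). Aurkaip1, Gadd45gip1 and Chchd1, the other 3 of this list of 5, had log2 ratios of 0.0025, 0.03 and 0.18. The median of the 5 was 0.03, and it was below 0 under 3 of the 4 other scalings. After correction for GC content and length it was -0.108, where that of the 76 members was -0.137.

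The ribosomal RNAs that these proteins bind were higher after knockdown. mt-Rnr1, the RNA of the small subunit, was at 52.9 and 142 FPKM (log2 ratio 1.40, read ratio 2.59, 2.40 to 2.79). mt-Rnr2, the RNA of the large subunit, was at 24.6 and 30.5 FPKM (0.30). The labels give total RNA and a NEBNext Ultra RNA kit, and do not say whether ribosomal RNA was removed or poly(A) RNA selected, so these levels are not those of the ribosomes. Of the 13 mitochondrial messenger RNAs, which the ribosome translates, 12 had reads and all 12 were lower, with a median log2 ratio of -1.17.

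Most genes of factors that build the mitochondrial ribosome were lower. Of 27 assembly factors at 1 FPKM or more, 21 were lower, 9 past 1.5-fold (33.3%) against 14.3% of all genes, and 0 past 1.5-fold higher. Their median log2 ratio was -0.23. The share lower was 77.8%, beside 64.5% of the members and 76.9% of the small-subunit members by place, and these shares were not tested against each other. Mettl17 had the lowest log2 ratio (-1.20, from 406 to 134 reads). Mpv17l2 had the highest (0.41, from 48.9 to 65.3 FPKM, and 0.11 after correction for GC content and length). Named after their values were seen, Tfb1m, which methylates the small-subunit RNA, had 286 and 115 reads (-0.95), Fastkd2, needed for the large-subunit RNA, 183 and 49 reads (-0.88), and C1qbp went from 94.1 to 52.2 FPKM (-0.84). The lowest read ratio of the list was that of Fastkd2, 0.259, beside 0.319 for Mettl17. Fastkd2 was at 1.66 and 0.445 FPKM, so it entered these counts only through the control library.

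Genes of mitochondrial translation factors went both ways. Of 11 at 1 FPKM or more, 6 were lower and 5 higher, with a median of -0.03. Lrpprc, which stabilises mitochondrial messenger RNAs, was lowest, from 9.05 to 3.37 FPKM (log2 ratio -1.20). Gfm2, a factor of ribosome recycling, was highest, from 366 to 687 reads (0.65). Tufm, the elongation factor that delivers tRNAs and also named after its values were seen, went from 56.7 to 81.6 FPKM (0.52).

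Genes of cytosolic ribosomal proteins were lower more uniformly than the mitochondrial ones. Of 76 cytosolic genes at 1 FPKM or more, 71 were lower, with a median of -0.32 and an interquartile range of 0.24, against 0.45 for the mitochondrial members and 0.72 for all protein-coding genes. They ran from Rpl13a (-0.85) to Rpl30 (0.16). Nuclear genes for respiratory chain subunits had a median of 0.14 over 80 genes, with 50 higher and 30 lower, from Cox6a2 (-3.57) to Cox7a1 (1.82). With each library scaled by its own read total, that median was 0.0909. As a share of the library total, the summed reads of the respiratory chain list were at 0.970 of the control share (0.965 to 0.976). At the common depth used for FPKM, its summed level went from 7809 to 7971 FPKM. The direction of the sum thus depended on the scaling. The mitochondrial members thus lay between these lists by median. Their interquartile range was closer to that of the respiratory chain, which was 0.37. Their standard deviation of 0.36 was closer to that of the cytosolic list, 0.19, than to that of the respiratory chain, 0.59.

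**Figure D4:**
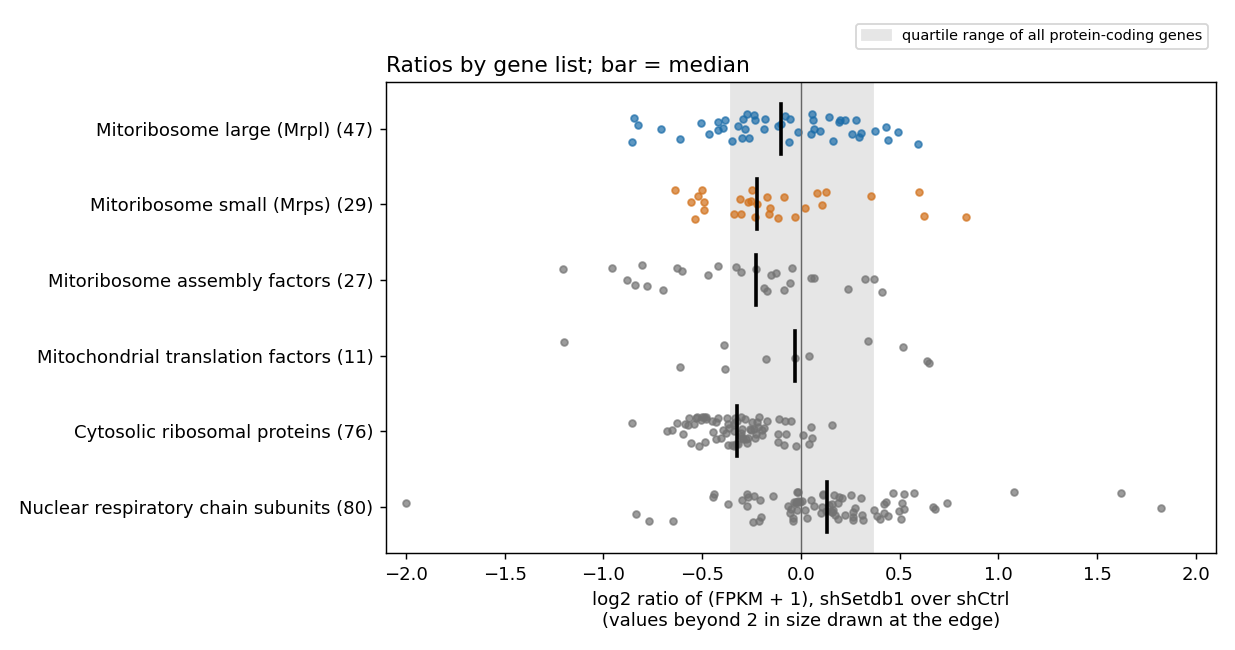
log2 ratio of (FPKM + 1), knockdown over control, for each gene of 6 lists (points), with the median of each list (bar) and the quartile range of all protein-coding genes (grey band). The medians are -0.10 for Mrpl, -0.22 for Mrps, -0.23 for assembly factors, -0.03 for translation factors, -0.32 for cytosolic ribosomal proteins and 0.14 for respiratory chain subunits; Cox6a2 is drawn at the left edge.

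Among regulators of nuclear genes for mitochondrial proteins, 8 of 12 were lower, with a median of -0.15. Myc, a transcription factor that drives ribosome production, was lowest, from 86.5 to 30.4 FPKM (log2 ratio -1.48). Esrra, a nuclear receptor that drives respiratory chain genes, was highest, from 27.4 to 56.7 FPKM (1.02). Its log2 ratio was 0.73 after correction for GC content and length. Of the factors whose motifs are described next, Nrf1 was at 6.34 and 5.88 FPKM (-0.09) and Yy1 at 8.42 and 8.84 FPKM (0.06), and Gabpa, an ETS factor, had 360 and 223 reads (-0.50). These 3 were named after their values were seen.

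The promoters of members held 4 of the 5 searched motifs at a higher share than all promoters did. RefSeq windows of 300 bases, 250 before and 50 after the start, were matched by symbol for 69 members. The other 9, namely Mrpl4, Mrpl13, Mrpl15, Mrpl19, Mrpl38, Mrpl54, Mrps28, Mrps34 and Mrps35, were not matched. The ETS core CCGGAAG stood in 26 of the 69 (37.7%), against 9.93% of all 27025 symbols and 22.5% of 7452 protein-coding genes at 1 FPKM or more. The NRF1 motif stood in 13 (18.8%, against 5.19% and 13.0%), and the longer YY1 motif in 5 (7.25%, against 0.755% and 2.25%). Its inner part ATGGCGG stood in 13 (18.8%, against 4.69% and 10.6%), which includes those 5. The E-box CACGTG was in 5 (7.25%, against 8.09% and 12.5%). Both strands were read, and a match is a description of the letters and not of binding.

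Members with each of the searched motifs lay on both sides of 0. The 13 with the NRF1 motif had a median log2 ratio of -0.01, against -0.23 for 54 without it, and included Mrpl14 and Mrpl45 as well as Mrps21 and Mrpl32. The 25 with the ETS core had a median of -0.18, against -0.14 for 42 without it, and included both Mrps22 and Mrps18c. The 5 with the E-box had a median of -0.39, against -0.16 for 62 without it, and were Mrpl37 (-0.86), Mrpl36 (-0.71), Mrpl2 (-0.39), Mrpl20 (0.05) and Mrps18c (0.84). The 5 with the longer YY1 motif had a median of -0.23 and the 12 with its inner part one of -0.25, against -0.16 for 62 and 55 without them. Of the 5, Mrps18a (0.11) was above 0 and the others, with Mrpl37 (-0.86) lowest, were below it. Among those with the inner part, Mrpl27 (0.30) and Mrpl9 (0.06) were above 0 as well.

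Members stood head to head with another gene more often than other genes did. A protein-coding gene on the other strand had its 5′ end within 1000 bases of that of 33 of the 78 members, which is 32 of the 76 at 1 FPKM or more (42.1%), against 18.1% of 9365 protein-coding genes at this level. For 25 such pairs both genes reached 1 FPKM, and the median distance between their 5′ ends was 125 bases. The neighbours had a median log2 ratio of 0, with 12 lower, and 12 of the 25 pairs had the same sign in both genes. Over the pairs, Pearson's correlation of the log2 ratios was 0.13 and Spearman's 0.06, given as descriptions, since all pairs share the 2 libraries.

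Single pairs show the range. Mrps18c (0.84) faces Helq at 29 bases, which was at 4.95 and 3.62 FPKM (-0.36). Mrpl14 (0.59) and Tmem63b, with 5′ ends 583 bases apart and overlapping heads, were both higher, Tmem63b going from 17.6 to 31.4 FPKM (0.80). Mrpl37 (-0.86) and Cyb5rl (-0.36), at 120 bases, were both lower, but Cyb5rl reached 1 FPKM only in the control (1.11 and 0.639 FPKM). Mrpl32 (-0.42) faces the proteasome gene Psma2 at 75 bases, which went from 20.2 to 36.2 FPKM (0.81). In 1 pair both genes were members: Mrps11 was at -0.23 and Mrpl46 at 0.38, with 5′ ends 412 bases apart. Where the heads overlap, and without a stated strand setting, reads of both genes cannot be told apart. These neighbours were named after their values were seen.

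**Figure D5:**
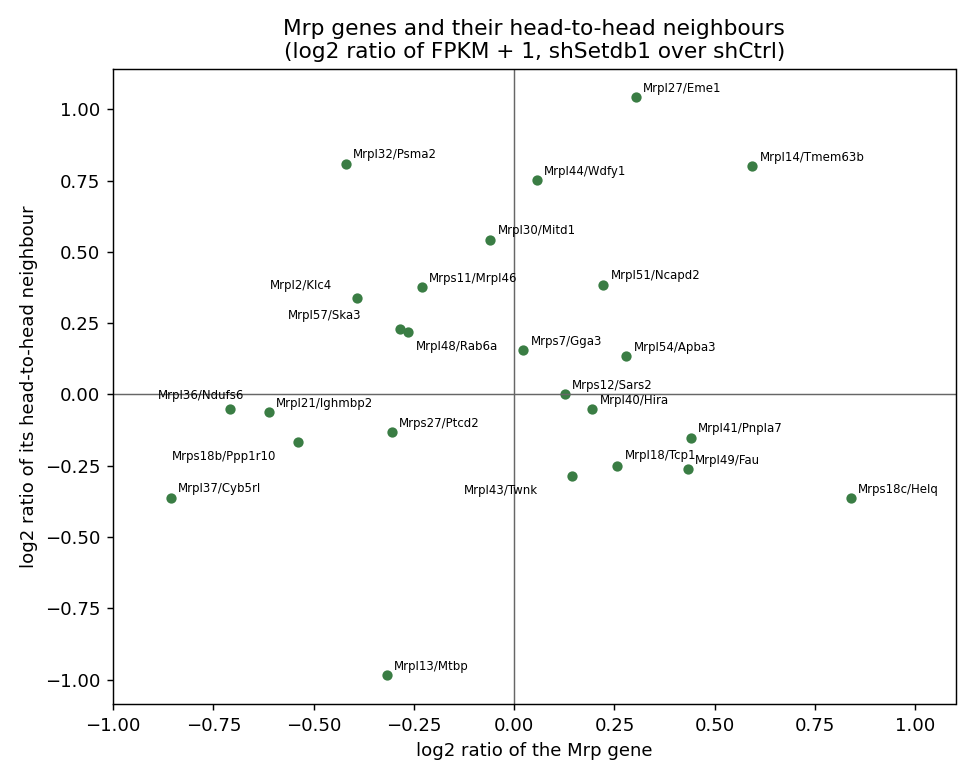
log2 ratio of (FPKM + 1), knockdown over control, of Mrp genes (horizontal) and of the protein-coding gene whose 5′ end lies within 1000 bases on the other strand (vertical), for the 25 pairs with both genes at 1 FPKM or more. Pairs lie in all 4 quadrants (Sars2, beside Mrps12, is at 0), and 12 have the same sign in both genes.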

How the data were processed

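The authors deposited FPKM values for 54680 rows, with each gene model's length, position and type. The submitters' processing notes name CASAVA, HISAT2, featureCounts 1.5.0-p3 and GRCm38. The strand setting and the handling of reads that fit several genes are not given in the sources used here. Of the 78 members, 73 had the same start and end in GENCODE M21. FPKM times length gave whole reads (within 0.01) for 100% of values above 0 in both libraries, with a common depth of 18731117. From these, log2 ratios of (FPKM + 1) and 95% exact (Clopper-Pearson) intervals of read ratios were computed. Intervals concern counting error only and take each read as an independent draw. PCR reads without molecular identifiers are not independent molecules, so the intervals can be too narrow even for that. Genes entered counts if either library reached 1 FPKM, so some entered only through the library where they were higher. No p-value across conditions was computed, as there was 1 library for each.

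Members and lists were chosen with earlier results of these data known, the groups by place after the values were seen. Named were Setdb1, the 5 highest and 5 lowest ratios and 3 highest levels of each subunit, members past 1.5-fold or under 1 FPKM, 8 members with paralogs, misleading names or second roles, and the extremes of each list. Other genes are given as parts of groups. The E-box, ETS, NRF1 and YY1 motifs were fixed with the lists. Alternatives were other pseudocounts, filters, scalings, folds, means and subunit assignments, and, after seeing the data, the binomial calls set beside the count of lower members and a lowess correction (span 0.3) for GC content and length. The calculations were tested on simulated data. Figures were drawn with matplotlib 3.10.9, and values came from scipy 1.17.1, statsmodels 0.14.6, pandas 2.3.3 and numpy 2.4.6 under Python 3.11.15.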

Additional observations from a re-analysis of the deposited data

How the results depend on the processing

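No paired analysis was possible because there was a single library for either condition, which also leaves no replicate to drop. Of 131 alternative values of the main results, 119 kept their direction and stayed within 0.148 (log2) of the value given, or within 1.5 times for counts, 8 moved further and 4 reversed. That tolerance is wide against small medians: the translation factors went from -0.0290 to -0.103 with a filter at 5 FPKM, and the respiratory chain from 0.135 to 0.0802 under upper-quartile scaling. On the (FPKM + 1) scale, 0 members were lower and 0 higher at 2-fold, and 20 lower and 9 higher at a log2 threshold of 0.32. The 4 members past 1.5-fold higher became 1 under upper-quartile scaling (8 lower), under scaling by the sum without the 100 highest genes (8 lower) and with each library scaled by its own read total (7 lower). The median of the 5 other mitoribosome proteins turned to -0.0254, -0.0242 and -0.0129 under these 3 scalings, and to -0.108 after correction for GC content and length. That correction, chosen after seeing the data, moved the assembly factors to a median of -0.380 and turned Mrps12 to -0.0612, Mrps18a to -0.0705 and Mrps30 to 0.0522. It also gave Mrpl14 0.332, Mrpl28 0.0429, Mrpl2 -0.621, Mrps24 -0.328, Mrpl12 -0.195, Mrpl37 -1.02 and Mrps6 -0.683, with 9 members past 1.5-fold lower and 3 higher. Of the comparison lists, it gave Mpv17l2 0.114, Rpl30 0.00964, Rpl13a -0.958, Myc -1.59 and Esrra 0.732. The causes were not tested. The difference between subunits ranged from 0.0261 (means) to 0.144 (filter at 5 FPKM). Depth limits the members with few reads most: in the control library Mrpl53 had 0 reads, Mrpl47 81, Mrpl1 109, Mrps18c, which had the highest ratio, 146, Mrpl39 149 and Mrps22 209.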

Other observations

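The table describes 11 processed pseudogenes as copies of mitochondrial ribosomal protein genes. Of these loci, 6 had reads, 312 in all in the control and 294 after knockdown, and 3 reached 1 FPKM. The copy of Mrps10 on chromosome 17 was at 14.6 and 14.4 FPKM (156 and 154 reads). Mrpl23-ps1 had 80 and 69 reads and Mrpl48-ps 72 and 64 reads, against 1455 and 1171 for Mrpl23 and 500 and 391 for Mrpl48. Mrps36-ps1, Mrps36-ps2 and Mrps36-ps3 had at most 5 reads each.

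The 78 members lay on 17 chromosomes, with 11 on chromosome 11 and 8 on chromosome 17. Their log2 ratios had a Spearman correlation of 0.01 with the GC content of the transcript and of -0.16 with the length of the gene model over 76 genes. Over 9351 protein-coding genes the values were 0.27 and -0.13. These are descriptions across genes of the same 2 libraries.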
